A study of Chlamydomonas reinhardtii with 9 samples.

Results

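The retinoblastoma pathway and its D-type cyclins decide when a Chlamydomonas reinhardtii cell has grown enough to divide. The genes were chosen by a fixed list of 6 gene IDs: MAT3 (the retinoblastoma-related protein RBR), E2F1, DP1, CDKG1, CYCD2 and CYCD3. Counts of 4 of them, MAT3, E2F1, DP1 and CYCD2, are described here, out of 14621 genes in the tables. CDKG1 and CYCD3 were not analysed here. The symbols are those of the list, since the deposited tables give IDs alone.

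Messenger RNA was sequenced from 3 libraries each of the mutant crpaf1-1, the mutant crskip-1 and wild type (WT). All 3 groups are of strain CC5325, a laboratory strain of this unicellular green alga. The cultures grew at 22 °C in TAP, a liquid acetate medium. Each day had 14 h of light and 10 h without, and cells were collected near the end of G1. The mutants carry the named allele of the gene for PAF1, a subunit of a complex that accompanies RNA polymerase II during elongation, or of the gene for SKIP, a protein of splicing and transcription. The labels give 1 allele of each gene and do not say how the alleles were made. Whether the 3 libraries of a group came from separate cultures is not stated, so p-values measure the spread between libraries, which may be technical. The mutated genes themselves were not analysed here, so the group labels were not checked by them.

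Chlamydomonas grows through a long G1, passes a point called commitment, and later divides by multiple fission, a run of rapid rounds of DNA replication and division. MAT3 restrains this programme: cells without it commit when small and divide too many times. E2F1 and DP1 form the transcription factor dimer to which MAT3 binds, and mutations in either suppress the small size of mat3 cells. D-type cyclins pair with cyclin-dependent kinases, among them CDKG1, which phosphorylate the retinoblastoma protein. A harvest late in G1 therefore samples the pathway near the time at which it acts. In a bulk culture, fewer cells at a given stage and less RNA per cell cannot be told apart.

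Total counts were 16876166 to 19725439 per crpaf1-1 library, 13907142 to 16122105 per crskip-1 library and 14006299 to 16812251 per WT library. The 4 genes had 577 to 6843 counts per library, and all 4 passed the filter on low counts, as did 13376 genes in all. Levels are given as CPM, counts relative to the total of their library, with the total scaled by the TMM method. Where genes are compared with each other, CPM are divided by the exonic length in kilobases. Every call is an adjusted p under 0.05 in edgeR's quasi-likelihood test, with Benjamini-Hochberg adjustment over all 13376 genes.

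In late G1, all 4 genes fell in crpaf1-1 relative to WT, and 1 of them, the cyclin gene CYCD2, also fell in crskip-1. CYCD2 showed the largest fall of the 4: crpaf1-1 averaged 247 ± 19.2 CPM and crskip-1 averaged 320.0 ± 30.4 CPM, against 393 ± 11.8 CPM in WT (SD, n = 3 each). In crpaf1-1 DP1 fell by 27.9%, MAT3 fell by 18.9% and E2F1 fell by 12.2%. All 4 were lower in crpaf1-1 than in crskip-1. Such changes were common: of all genes tested, 58.4% were called in crpaf1-1 over WT, 29.8% lower and 28.6% higher. In crskip-1 over WT 25.1% were lower, a share like the 1 of 4 here, and in crpaf1-1 over crskip-1 28.2% were lower.

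**Figure D1:**
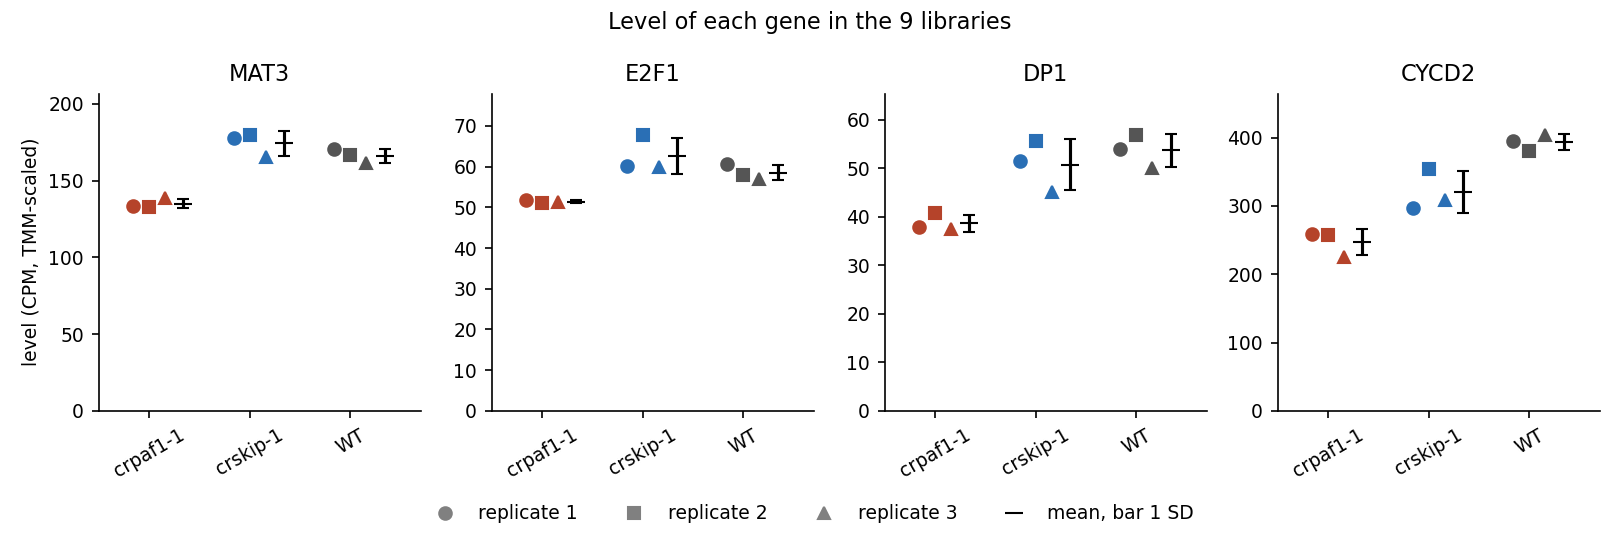
TMM-scaled CPM of MAT3, E2F1, DP1 and CYCD2 in each library, by group, on axes that start at 0. Coloured points are single libraries, and the black mark and bar are the mean and 1 SD of 3 libraries. For each gene, every crpaf1-1 library lies below every WT library, and crskip-1 libraries lie below WT without overlap for CYCD2 alone. Of all genes tested, 32.1% lie below WT in this way in crpaf1-1 and 28.5% in crskip-1.

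MAT3 (Cre06.g255450_4532.v6.1) lies on chromosome 6, plus strand, from 821449 to 827637. Coordinates are those of the deposited tables, whose assembly is named only by the suffix of the IDs. The tables list 28 exon records for it, up to 4 of them over 1 position, which merge into 10 exon blocks of 5078 bases in all. The last and longest block holds 2259 bases, or 44.5% of that length. From position 827316 on, this block overlaps Cre06.g255500_4532.v6.1, a gene on the opposite strand, by 322 bases. The sources used here do not say whether strand was used in counting, so MAT3 counts are uncertain to that extent. The overlapping gene averaged 10.1 ± 0.709 CPM for crpaf1-1, 8.94 ± 0.575 CPM for crskip-1 and 8.55 ± 0.478 CPM for WT (SD, n = 3 each), and did not pass in either mutant over WT.

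MAT3 transcripts measured 133.3, 132.9 and 138.3 CPM in crpaf1-1 replicates 1 to 3. They measured 177.8, 179.7 and 165.1 CPM in crskip-1, and 170.4, 166.5 and 161.5 CPM in WT. The crpaf1-1 libraries were the lowest of all 9, while crskip-1 and WT libraries overlapped. The log2 fold change of crpaf1-1 over WT was -0.30 (SE 0.047, 95% confidence interval -0.40 to -0.20, adjusted p = 3.28e-05, edgeR). That of crskip-1 over WT was 0.07 (SE 0.047, 95% confidence interval -0.03 to 0.17) and did not pass (adjusted p = 0.241, edgeR).

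E2F1 (Cre01.g052300_4532.v6.1), which encodes the E2F subunit of the dimer, lies on chromosome 1, plus strand, from 7413968 to 7419303. Its 31 exon records merge into 8 blocks of 3939 bases, and the last block holds 2218 of them. No gene in the tables overlaps it. The crpaf1-1 libraries held E2F1 transcripts at 51.8, 51.1 and 51.3 CPM. The crskip-1 libraries held 60.2, 67.8 and 59.9 CPM, and the WT libraries 60.6, 58.0 and 57.0 CPM. The crpaf1-1 libraries again lay below the other 6, and crskip-1 replicate 2 was the highest of all.

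The E2F1 fall was the smallest of the 4, with a log2 fold change of crpaf1-1 over WT of -0.19 (SE 0.059, 95% confidence interval -0.31 to -0.06, adjusted p = 0.0110, edgeR). Among genes called in this comparison, 7.24% had a smaller absolute change. The coefficient of variation over the 3 crpaf1-1 libraries was 0.629%, below the 3.17% expected from counting error alone, so their spread understates the error of this mean. The call was lost with scaling by library size alone (log2 -0.11, adjusted p = 0.149) and in sequencing lane 2 alone, which holds replicates 2 and 3 of each group (log2 -0.17, adjusted p = 0.0578, edgeR). In crskip-1 the log2 fold change over WT was 0.10 (SE 0.059, 95% confidence interval -0.03 to 0.22, adjusted p = 0.181, edgeR), which did not pass.

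DP1 (Cre07.g323000_4532.v6.1) encodes the dimerization partner of E2F and lies on chromosome 7, plus strand, from 1394317 to 1398906. Its 20 exon records merge into 7 blocks of 3511 bases, 1943 of them in the last, and no gene in the tables overlaps it. DP1 stood at 37.9, 40.7 and 37.4 CPM in the crpaf1-1 libraries, at 51.5, 55.6 and 45.2 CPM in those of crskip-1, and at 54.1, 56.9 and 50.2 CPM in those of WT. Every crpaf1-1 library lay below the lowest library of the other groups, and crskip-1 spread over the range of WT and below it.

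The log2 fold change of DP1 in crpaf1-1 over WT was -0.47 (SE 0.073, 95% confidence interval -0.63 to -0.32, adjusted p = 3.01e-05, edgeR). In crskip-1 it was -0.08 (SE 0.074, 95% confidence interval -0.23 to 0.08) and did not pass (adjusted p = 0.407, edgeR). DP1 was the least even of the 4 genes in crskip-1, with a coefficient of variation of 10.3% over 3 libraries. The log2 fold change of crskip-1 over WT was -0.15 without crskip-1 replicate 2 (adjusted p = 0.138) and 0.00 without crskip-1 replicate 3 (adjusted p = 0.99, edgeR), and passed in neither. With scaling by library size alone it was -0.20 and did pass (adjusted p = 0.0317, edgeR).

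CYCD2 (Cre06.g289750_4532.v6.1), a D-type cyclin gene, lies on chromosome 6, minus strand, from 5898098 to 5902501. The tables give it 7 exon records that do not overlap, hence 7 blocks, of 3065 bases in all. The last block in the direction of transcription holds 1990 bases, or 64.9%. The first 89 bases of the gene overlap Cre06.g289800_4532.v6.1 on the opposite strand, so CYCD2 counts are uncertain to that extent. That gene averaged 9.10 ± 1.32 CPM for crpaf1-1, 12.5 ± 1.07 CPM for crskip-1 and 11.2 ± 1.45 CPM for WT (SD, n = 3 each).

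CYCD2 transcripts measured 259.2, 256.9 and 224.8 CPM in crpaf1-1. They measured 296.7, 354.4 and 308.9 CPM in crskip-1, and 395.4, 380.5 and 403.9 CPM in WT. The 3 groups did not overlap, with crpaf1-1 lowest, crskip-1 between and WT highest. The log2 fold change of crpaf1-1 over WT was -0.67 (SE 0.064, 95% confidence interval -0.81 to -0.54), a fall to 0.628 of the WT level (adjusted p = 9.25e-08, edgeR). The log2 fold change of crskip-1 over WT was -0.30 (SE 0.064, 95% confidence interval -0.43 to -0.16), a fall to 0.814 of the WT level (adjusted p = 0.000864, edgeR).

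The comparisons of each mutant with WT share the 3 WT libraries, so they are not independent of each other. In crpaf1-1, 4 of the 4 genes fell, with a median log2 fold change of -0.38, against 29.8% of all tested genes lower and a median of 0.009 over all of them. In crskip-1, 1 of the 4 fell and the other 3 did not pass, where 25.1% of all tested genes were lower, 24.4% higher and 49.5% called in either direction. The median log2 fold change over all genes tested was 0.004 there. The libraries of crpaf1-1 lay below those of WT without overlap for all 4 genes, as they did for 32.1% of genes tested. In crskip-1 this held for CYCD2 alone, and for 28.5% of genes tested.

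The sizes of the falls were ordinary for the series. In crpaf1-1 the absolute log2 fold change had a median of 0.45 among called genes. CYCD2 exceeded 71.1% of the called genes in size, DP1 53.4% and MAT3 27.6%. Of the 13376 genes tested, 1551 had a lower log2 fold change than CYCD2 in crpaf1-1, 2316 a lower one than DP1, 3308 a lower one than MAT3 and 4304 a lower one than E2F1. In crskip-1, 3046 genes were lower than CYCD2, whose fall exceeded 29.5% of the called genes in size.

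**Figure D2:**
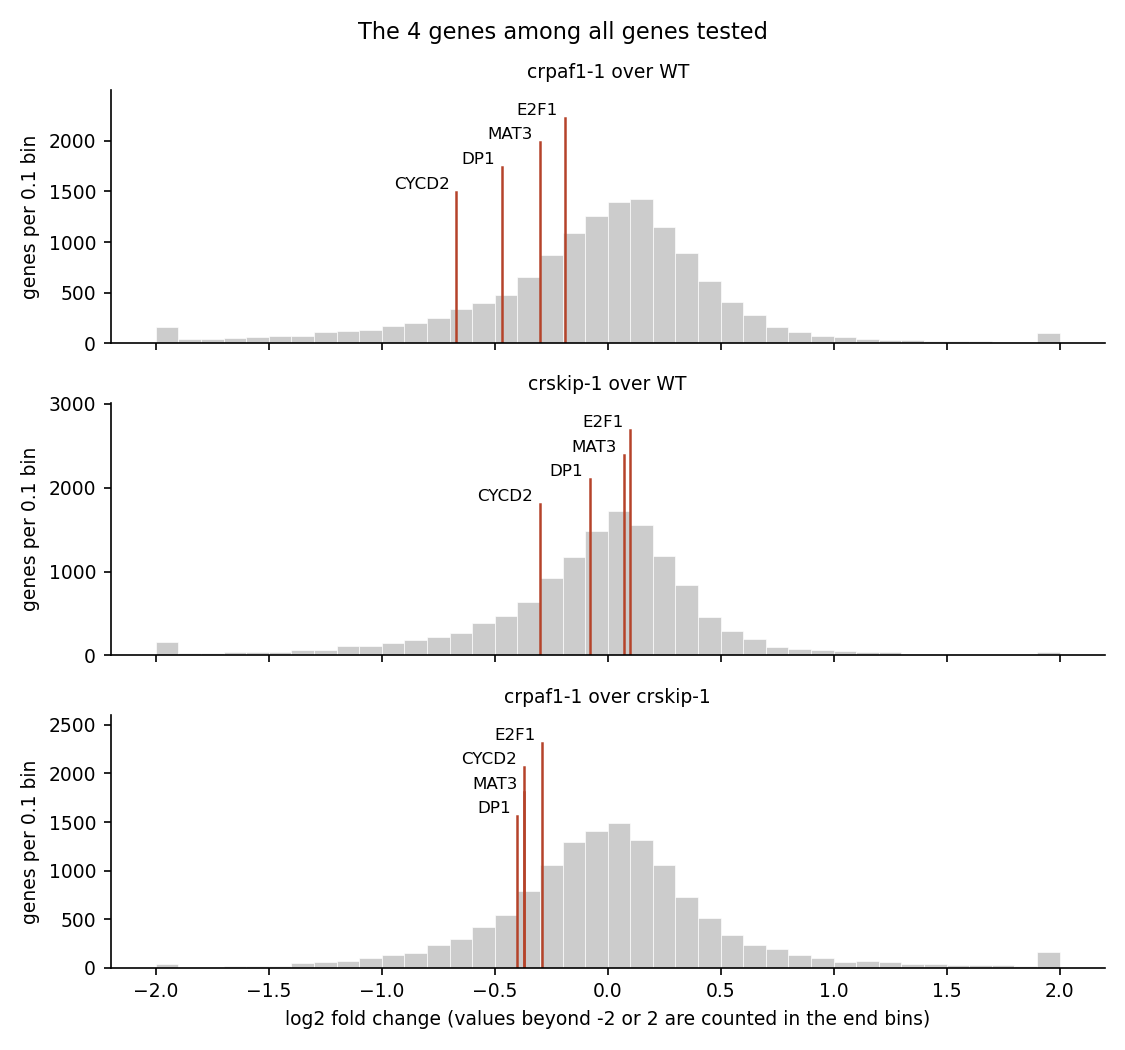
Number of genes per log2 fold change bin of 0.1 over all 13376 genes tested (grey bars), with the 4 genes as red lines, for crpaf1-1 over WT, crskip-1 over WT and crpaf1-1 over crskip-1. In crpaf1-1 the 4 lines lie left of 0 and inside the bulk of the genes, with CYCD2 farthest out at -0.67.

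The mutants were also compared directly. All 4 genes were lower in crpaf1-1 than in crskip-1, where 53.8% of all tested genes were called, 28.2% lower and 25.7% higher. The log2 fold changes of crpaf1-1 over crskip-1 were -0.40 (SE 0.074) for DP1 and -0.37 (SE 0.047) for MAT3. They were -0.37 (SE 0.064) for CYCD2 and -0.29 (SE 0.059) for E2F1. Adjusted p-values ranged from 4.36e-06 for MAT3 to 0.000557 for E2F1 (edgeR). The libraries of the mutants did not overlap for any of the 4 genes, as for 30.8% of genes tested with crpaf1-1 lower.

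These differences depended on scaling more than those against WT. TMM factors were 1.0594 to 1.0814 in crpaf1-1, 0.9176 to 0.9337 in crskip-1 and 0.9874 to 1.0294 in WT. Without them, the median log2 fold change of all tested genes moved to 0.20 for crpaf1-1 over crskip-1. The log2 fold changes of the 4 genes then were -0.19 for DP1, -0.16 for MAT3, -0.17 for CYCD2 and -0.08 for E2F1, of which the last no longer passed (adjusted p = 0.28, edgeR). For MAT3 and E2F1 in crskip-1 over WT, neither of which passed, library size alone turned the sign to -0.06 and -0.03, where the median of all genes moved to -0.12.

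**Figure D3:**
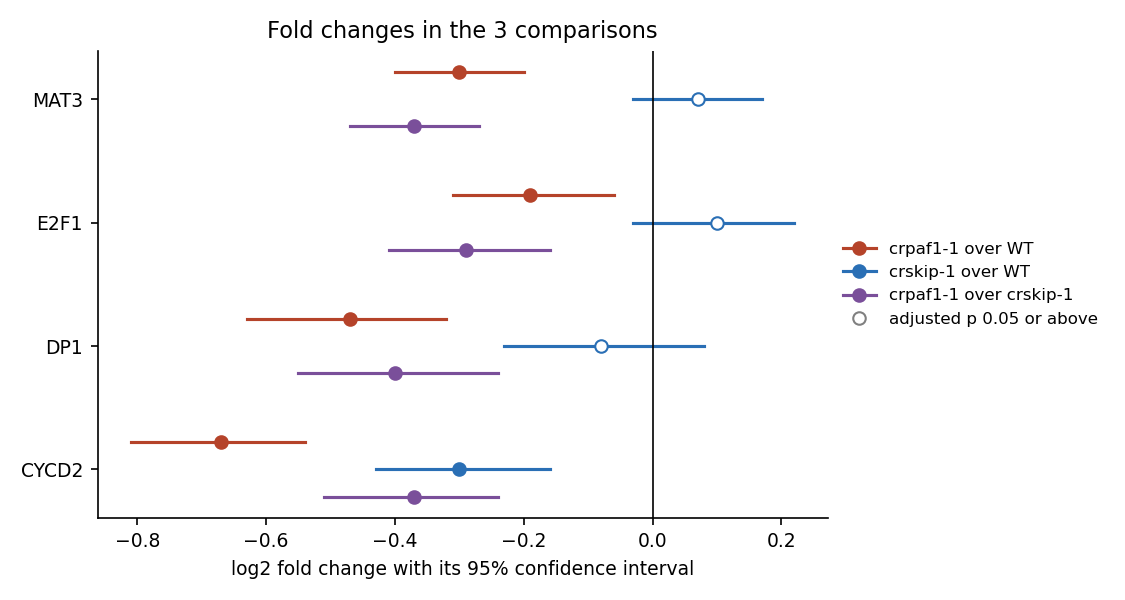
Log2 fold change of each gene with its 95% confidence interval in the 3 comparisons, from the fit over all 9 libraries. Open circles mark values with an adjusted p of 0.05 or above, which are MAT3, E2F1 and DP1 in crskip-1 over WT.

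Per kilobase of exons, CYCD2 was the most abundant of the 4 in every group, and MAT3 stood next. CYCD2 reached 80.6 ± 6.26 CPM per kilobase in crpaf1-1, 104.4 ± 9.91 in crskip-1 and 128.3 ± 3.85 in WT (SD, n = 3 each). It lay above 93.2%, 94.2% and 95.6% of tested genes in crpaf1-1, crskip-1 and WT. MAT3 reached 26.6 ± 0.589 CPM per kilobase in crpaf1-1, 34.3 ± 1.56 in crskip-1 and 32.7 ± 0.880 in WT. The genes of the dimer had the lowest levels, at 13.0 ± 0.0821 for E2F1 and 11.0 ± 0.512 for DP1 in crpaf1-1. In crskip-1 they stood at 15.9 ± 1.13 for E2F1 and 14.5 ± 1.49 for DP1, and in WT at 14.9 ± 0.474 for E2F1 and 15.3 ± 0.963 for DP1. E2F1 and DP1 overlapped in WT and in crskip-1. In crpaf1-1, E2F1 libraries, at 13.0 to 13.1 CPM per kilobase, lay above DP1 libraries, at 10.7 to 11.6.

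Ratios between genes of 1 library do not depend on how libraries are scaled. The ratio of DP1 to E2F1 transcripts, per length, was 0.821, 0.894 and 0.818 in crpaf1-1 and 0.960, 0.921 and 0.847 in crskip-1, against 1.00, 1.10 and 0.988 in WT. The ratio was near 1 in WT and lower than in WT in every mutant library, and the mutants overlapped each other. The crskip-1 and WT libraries nearly met, at 0.960 and 0.988, and neither gene passed in crskip-1 over WT. Counting error alone was 3.35% for E2F1 and 3.72% for DP1 in crskip-1, so little is read from that gap. For 19.6% of all other tested genes, the ratio to E2F1 was likewise lower in crpaf1-1 than in WT without overlap, and for 33.9% it was lower in crskip-1.

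The ratio of CYCD2 to MAT3 was 3.22, 3.20 and 2.69 in crpaf1-1 and 2.76, 3.27 and 3.10 in crskip-1, against 3.84, 3.79 and 4.14 in WT. Its mean was 3.04 ± 0.299 in crpaf1-1 and 3.04 ± 0.256 in crskip-1, against 3.92 ± 0.192 in WT (SD, n = 3 each). Relative to MAT3, CYCD2 was therefore lower in both mutants, which overlapped each other but not WT. The ratio of a gene to MAT3 was lower without overlap for 15.2% of all other tested genes in crpaf1-1 and for 33.0% in crskip-1.

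The ratio of CYCD2 to E2F1 had means of 6.17 ± 0.470 in crpaf1-1 and 6.56 ± 0.203 in crskip-1, against 8.64 ± 0.403 in WT (SD, n = 3 each), and neither mutant overlapped WT. The shares of all other genes with such a lower ratio to E2F1 are the 19.6% in crpaf1-1 and 33.9% in crskip-1 given above. The ratio of MAT3 to E2F1 averaged 2.03 ± 0.0489 in crpaf1-1 and 2.16 ± 0.119 in crskip-1. In WT it averaged 2.20 ± 0.0237 (SD, n = 3 each). The crpaf1-1 libraries lay below WT in this ratio, while crskip-1 libraries overlapped WT. Counting error of E2F1 alone was 3.17% in crpaf1-1 and 3.28% in WT, more than the SD of this ratio relative to its mean. The spread in those groups thus understates the error of the ratio, and the lack of overlap is uncertain. The ratio of MAT3 to DP1 went the other way, with means of 2.41 ± 0.151 for crpaf1-1 and 2.38 ± 0.146 for crskip-1, against 2.14 ± 0.106 for WT (SD, n = 3 each). The groups nearly met in this ratio: the lowest library was 2.25 in crpaf1-1 and 2.23 in crskip-1, and the highest WT library was 2.23. The share of other genes that rise so relative to DP1 was not computed, so nothing particular to MAT3 is read from it. The ratio of CYCD2 to DP1 overlapped WT in both mutants, at 7.31 ± 0.485 in crpaf1-1 and 7.24 ± 0.616 in crskip-1, against 8.42 ± 0.781 in WT.

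**Figure D4:**
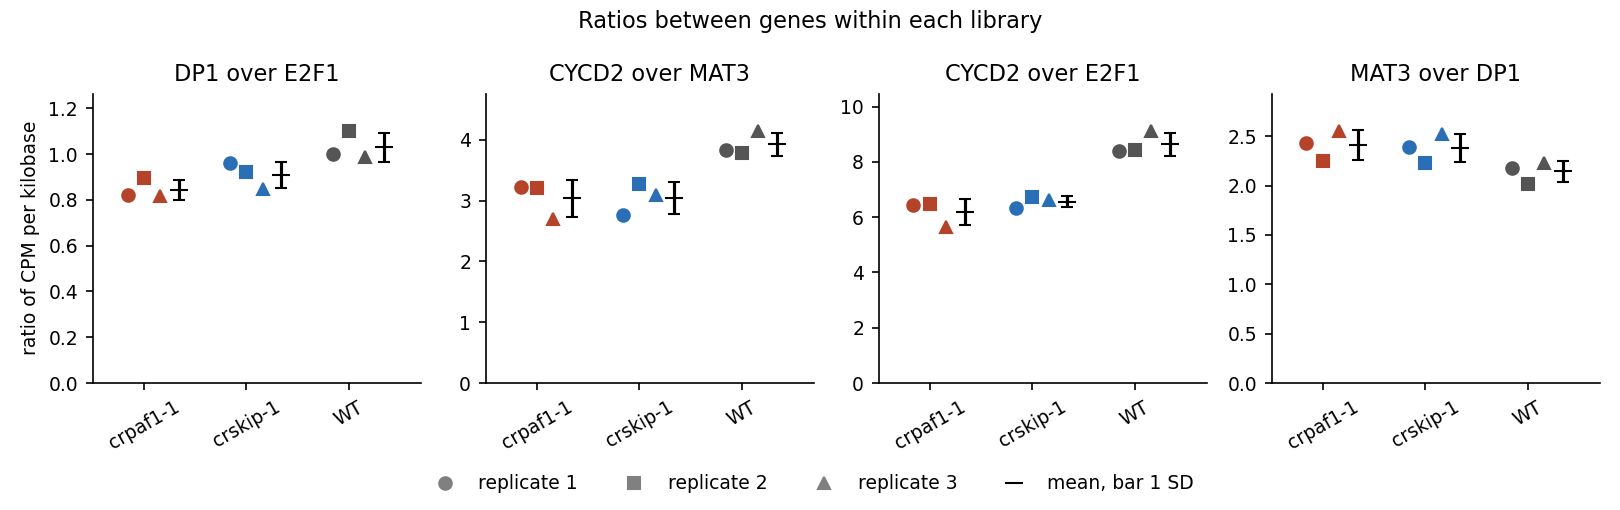
Ratios of CPM per kilobase between genes within each library, by group, on axes that start at 0, with the mean and 1 SD of 3 libraries. The ratio of CYCD2 to MAT3 and that of CYCD2 to E2F1 lie lower in both mutants than in WT. The ratio of DP1 to E2F1 is 0.844 on average in crpaf1-1 and 0.909 in crskip-1, against 1.03 in WT. Of all other tested genes, 15.2% in crpaf1-1 and 33.0% in crskip-1 have a ratio to MAT3 that is lower without overlap. For the ratio to E2F1 the shares are 19.6% and 33.9%.

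Across the 9 libraries, MAT3 and E2F1 were the most alike pair of the 4, with a Pearson correlation of log2 CPM of 0.94. MAT3 and DP1 correlated at 0.90, DP1 and CYCD2 at 0.88, and E2F1 and DP1 at 0.84. MAT3 and CYCD2 correlated at 0.74, and E2F1 and CYCD2 at 0.69, the least alike pair. The libraries fall into 3 groups, and differences between the group means enter these values. The correlation of MAT3 with E2F1 stood above that of MAT3 with 97.5% of the other genes tested. The same share was 84.9% for MAT3 with CYCD2. Among correlations of E2F1, it was 93.7% for DP1 and 84.4% for CYCD2. With group means removed, the order changed. The correlations over the same 9 libraries were then 0.68 for MAT3 and DP1, 0.65 for E2F1 and CYCD2, 0.64 for E2F1 and DP1, 0.63 for MAT3 and E2F1, 0.39 for DP1 and CYCD2, and -0.05 for MAT3 and CYCD2.

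The genes most like each of the 4 were named by the highest correlation of log2 CPM over the 9 libraries, and the tables pair none of them with a product. Because they were picked from the same libraries, group differences included, their changing along with the matched gene follows from the choice. Their fold changes and p-values are given as description and lend no separate support. CYCD2 was followed most closely by Cre09.g411633_4532.v6.1 (r = 0.994), with means of 26.9 ± 1.82 CPM for crpaf1-1 and 36.8 ± 4.52 CPM for crskip-1, against 45.3 ± 1.11 CPM in WT (SD, n = 3 each). It was followed next by Cre13.g588900_4532.v6.1 (r = 0.988), whose log2 fold change over WT was -1.45 in crpaf1-1 and -0.66 in crskip-1. Both were called lower in each mutant, with adjusted p-values from 3.72e-07 to 0.00479 (edgeR). Genes with r over 0.9 to CYCD2 numbered 807 of the 13376 tested.

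MAT3 was most like Cre05.g800516_4532.v6.1 (r = 0.990) and Cre07.g329950_4532.v6.1 (r = 0.988). Cre07.g329950_4532.v6.1 changed far more than MAT3 itself, with means of 3.17 ± 0.211 CPM for crpaf1-1 and 9.88 ± 0.742 CPM for crskip-1, against 8.88 ± 1.34 CPM in WT (SD, n = 3 each). Its log2 fold change was -1.49 in crpaf1-1 over WT (adjusted p = 5.76e-08, edgeR). Genes with r over 0.9 to MAT3 numbered 657.

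E2F1 was most like Cre10.g453050_4532.v6.1 (r = 0.974) and Cre16.g801904_4532.v6.1 (r = 0.974), and 295 genes had r over 0.9 to it. Both were called lower in crpaf1-1 (log2 -0.23 and -0.17) and higher in crskip-1 (log2 0.14 each), with adjusted p-values from 0.000762 to 0.0489 (edgeR). DP1 was most like Cre06.g266250_4532.v6.1 (r = 0.979) and Cre12.g549450_4532.v6.1 (r = 0.978), and 344 genes had r over 0.9 to it. Those were lower in crpaf1-1 (log2 -0.35 and -0.18, adjusted p = 4.44e-05 and 0.0052, edgeR) and did not pass in crskip-1 over WT.

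The genes beside the 4 on their chromosomes numbered 10, of which 9 were tested. In crpaf1-1 over WT, 2 of the 9 were higher and 1 lower, and in crskip-1 over WT 3 were higher and 1 lower. Over all genes tested, 28.6% were higher and 29.8% lower in crpaf1-1, and 24.4% higher and 25.1% lower in crskip-1, so nothing particular to the neighbours is read from these counts. Upstream of MAT3, Cre06.g255400_4532.v6.1 starts 89 bases away on the opposite strand. It was higher in both mutants, with means of 99.3 ± 3.72 CPM for crpaf1-1 and 89.0 ± 2.51 CPM for crskip-1, against 79.8 ± 4.27 CPM in WT (SD, n = 3 each). Its log2 fold change over WT was 0.32 in crpaf1-1 (adjusted p = 6.91e-05) and 0.16 in crskip-1 (adjusted p = 0.0223, edgeR).

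E2F1 lies between genes of its own strand, Cre01.g052250_4532.v6.1 ending 102 bases before it and Cre01.g052350_4532.v6.1 starting 491 bases after it. Neither passed in crpaf1-1 over WT (log2 0.00 and -0.04). Both were higher in crskip-1, with log2 fold changes of 0.21 and 0.19 (adjusted p = 0.00492 and 0.00911, edgeR). Cre07.g322950_4532.v6.1, on the strand of DP1 and ending 200 bases before it, was lower in crskip-1 (log2 -0.16, adjusted p = 0.0227, edgeR) and did not pass in crpaf1-1 (log2 0.07).

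Beside CYCD2, the overlapping gene Cre06.g289800_4532.v6.1 was lower in crpaf1-1 (log2 -0.31, adjusted p = 0.0363, edgeR) and did not pass in crskip-1 (log2 0.15). It is the 1 neighbour that fell with its partner in crpaf1-1, and it shares the start of CYCD2. The next gene on that side, Cre06.g289850_4532.v6.1, was higher in crpaf1-1 (log2 0.20, adjusted p = 0.0133, edgeR).

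**Figure D5:**
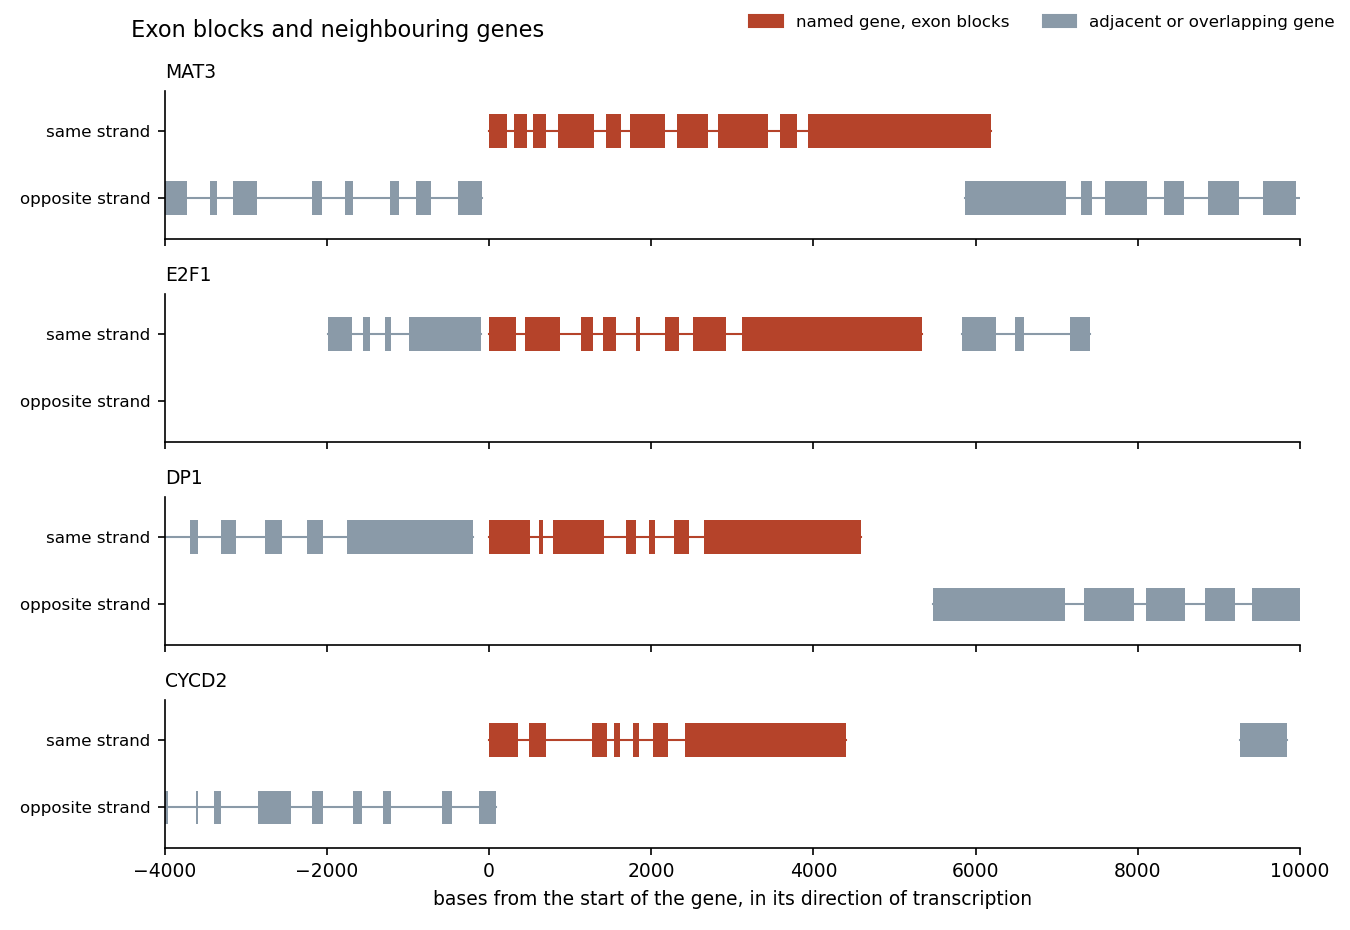
Exon blocks of MAT3, E2F1, DP1 and CYCD2 (red) and of adjacent or overlapping genes (grey), by distance in bases from the start of each named gene in its direction of transcription. MAT3 meets a gene of the opposite strand at its end over 322 bases, CYCD2 meets one at its start over 89 bases, and the longest block is the last in each of the 4.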

How the data were processed

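For each library the authors deposited raw, unscaled counts of 14621 genes. Bowtie2 and featureCounts are named in the submitters' processing notes; the sources used here do not give their versions, the strand setting or the genome build. Only uniquely mapped alignments without duplicates were counted, per the file headers, and removal of duplicates can lower the counts of abundant genes more than those of others. Bowtie2 does not split reads over introns, so reads across exon junctions may be missing. Per the labels' protocols, RNA with poly(A) tails was selected and sequenced in pairs, although the molecule is labelled as genomic DNA; the values are treated as expression.

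Tests used edgeR 4.0.16 in R 4.3.3 (quasi-likelihood F test): TMM scaling, filterByExpr defaults, all 9 libraries in 1 fit, no covariates. The filter removed 1245 genes with 0.0187% of the counts. SE is the absolute log2 fold change over the square root of F. Correlations used log2 CPM with a prior count of 2. Alternatives were DESeq2 1.42.0, RLE scaling, library size alone, no filter, lane 2 alone, the 2 groups compared alone, a replicate block, and leaving out each library. The fit was tested on simulated data with known changes. Those were larger than the changes of MAT3, E2F1 and DP1 in any comparison, so the simulation does not bear on changes that small. Replicates differed by more than counting noise (chi-square per degree of freedom 2.42 to 4.18), and none was counted as a repeat.

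Named genes are the 4 genes, the 2 most correlated genes of each, and the adjacent or overlapping genes. The members, lists and alternatives were chosen with earlier results of these data known. The reference table of assembly Chlamydomonas_reinhardtii_v5.5 gave 0 symbols or products, so planned lists of other cyclins, kinases, replication genes and histones, and sequences, were not used here.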

Additional observations from a re-analysis of the deposited data

Results flagged for a closer look

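All 4 genes were marked because their levels differed between the 2 mutants in a direct test (edgeR, adjusted over all tested genes). Log2 fold changes of crpaf1-1 over crskip-1 were -0.37 for MAT3, -0.29 for E2F1, -0.40 for DP1 and -0.37 for CYCD2. Every crpaf1-1 library lay below every crskip-1 library for each gene, as for 30.8% of all tested genes. In this comparison 28.2% of all tested genes were called lower. With library size alone the E2F1 difference did not pass.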

How the results depend on the processing

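Of 192 recomputed fold changes of the 4 genes, 186 kept their direction and their side of the threshold, as did 48 of 48 counts of called genes to within 1.5 times. Scaling by library size alone accounted for 5 of the other 6: E2F1 no longer passed in crpaf1-1 over WT (log2 -0.11) or in crpaf1-1 over crskip-1 (-0.08), DP1 passed in crskip-1 over WT (-0.20), and MAT3 (-0.06) and E2F1 (-0.03) changed sign in crskip-1 over WT, all by the shift of scale that this setting makes. The counts of called genes join both directions, whose shares were less stable. With library size alone, 60.3% of called genes were higher in crpaf1-1 over WT, against 48.9% with TMM scaling. These shares were 27.6% against 49.3% in crskip-1 over WT, and 76.7% against 47.7% in crpaf1-1 over crskip-1. In lane 2 alone, E2F1 in crpaf1-1 over WT was -0.17 and did not pass. The cause was not tested, and this fit holds fewer libraries. Lane 3 held 1 library per group. Leaving out 1 library at a time ended no call of the 4 genes. It gave CYCD2 -0.71 to -0.61 in crpaf1-1 and -0.38 to -0.24 in crskip-1, and E2F1 -0.21 to -0.16 in crpaf1-1, all over WT. DP1 in crskip-1 over WT, which did not pass, ranged from -0.15 to 0.00.

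Libraries of equal replicate number deviated from their group means with correlations of -0.045 to 0.255 across genes, and those of unequal number with -0.178 to 0.135. The numbers were not taken as pairs, because not every same-number correlation was over 0.1. Replicate 1 libraries, which share lane 3, correlated at 0.123 to 0.255, and 12 of 18 best matches were of the same number, which is a hint of a shared batch from the data and not from the labels. A replicate block changed no call of the 4 genes (CYCD2 -0.67 in crpaf1-1 over WT and -0.30 in crskip-1 over WT) and gave 8176, 7004 and 7581 called genes in crpaf1-1 over WT, crskip-1 over WT and crpaf1-1 over crskip-1, against 7806, 6617 and 7200 without it. Depth limits E2F1 and DP1 most, whose counting error alone was 3.17 to 3.72% per library.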
